A study of Mus musculus with 8 samples.

Results

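Cycling intermediate progenitor cells (IPCs) of the mouse dentate gyrus were selected from the droplet single-cell RNA-seq data by the genes detected in each barcode. A barcode was kept when it held over 500 genes and under 10% of its unique molecular identifiers (UMIs, each a counted transcript molecule) came from mitochondrial genes. It was a cycling IPC when at least 2 of Eomes, Neurog2, Neurod4, Mfng and Igfbpl1 were detected, Eomes or Neurog2 among them, together with at least 4 of 10 cycle genes (Mcm2 to Mcm7, Pcna, Top2a, Cdk1 and Ccnb1) and at most 1 of 7 genes of other lineages (Mog, Mag, Mobp, Cx3cr1, Cldn5, Pdgfra and Cspg4). The rule found 924 cells among 24376 kept barcodes (3.79%), of 26036 barcodes in all.

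The cells came from mice on a mixed C57BL/6J and CD1 background that all carried 1 copy each of Nestin-GFP, Ki67-creERT2 and a Cre-dependent tdTomato allele. Nestin-GFP labels cells in which the Nestin transgene is active, and Ki67-creERT2 gives tamoxifen-inducible Cre in dividing cells. All animals, whatever their age, received tamoxifen for 6 days and were culled on day 8, so no untreated group was compared. Dissected dentate gyri of several male and female mice were pooled in each experiment and GFP+ cells, tdTomato+ and tdTomato-, were sorted. The 7 experiments were 1 with mice of 1 month, 3 with mice of 2 months and 3 with mice of 6 to 8 months, the last called 6 months below. The first experiment at 2 months was run as 2 libraries, 1 of tdTomato+ cells together with double-negative cells and 1 of tdTomato- cells, which were summed here. The 2-month libraries were made with Version 2 chemistry and the others with Version 3, so an age of 2 months and the chemistry cannot be told apart.

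IPCs are the amplifying step of hippocampal neurogenesis. Radial-glia-like stem cells divide slowly and give rise to IPCs, which divide a few times and then become neuroblasts that mature into granule neurons. Eomes (Tbr2) and Neurog2 mark the IPC stage, and Neurod1 and Dcx accompany the turn to neuroblast. DNA is copied in S phase with the Mcm helicase and Pcna, and mitosis in the M phase that follows G2 needs Cdk1, cyclin B and topoisomerase II.

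The libraries differed in how many of these cells they held. The 1-month library held 292 among 3288 kept barcodes, 8.88% (exact 95% binomial interval 7.93 to 9.91%). At 2 months the tdTomato+ library of experiment 1 held 58 (3.76%), its tdTomato- library 138 (5.21%), experiment 2 held 90 (2.22%) and experiment 3 held 77 (4.31%). At 6 months the 3 experiments held 52 (2.06%), 56 (1.66%) and 161 (3.12%). The 1-month share lay above the interval of every other library, although the sort sets these shares, which are therefore not frequencies in the tissue.

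Depth differed too. A library held between 4861883 and 43826338 UMIs, and the median UMIs per cycling IPC were 12566 at 1 month, 7387 and 7519 in the 2 libraries of the first 2-month experiment, 4107 and 4510 in the other 2-month experiments, and 8725, 14978 and 16085 at 6 months. Because the rule counts detected genes, deeper cells pass it more easily. When each cell was thinned to 2000 UMIs, leaving out 4088 shallower cells, 294 cells still met the rule. Cycling IPCs were then 1.96% of the thinned cells at 1 month, 2.33%, 1.79% and 3.51% at 2 months and 0.634%, 0.338% and 1.05% at 6 months. On this scale the 1-month share was not the highest. Of all 26036 barcodes 119 had a sequence also found in another library, 5 of them cycling IPCs, and no 2 cycling IPCs shared one.

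**Figure D1:**
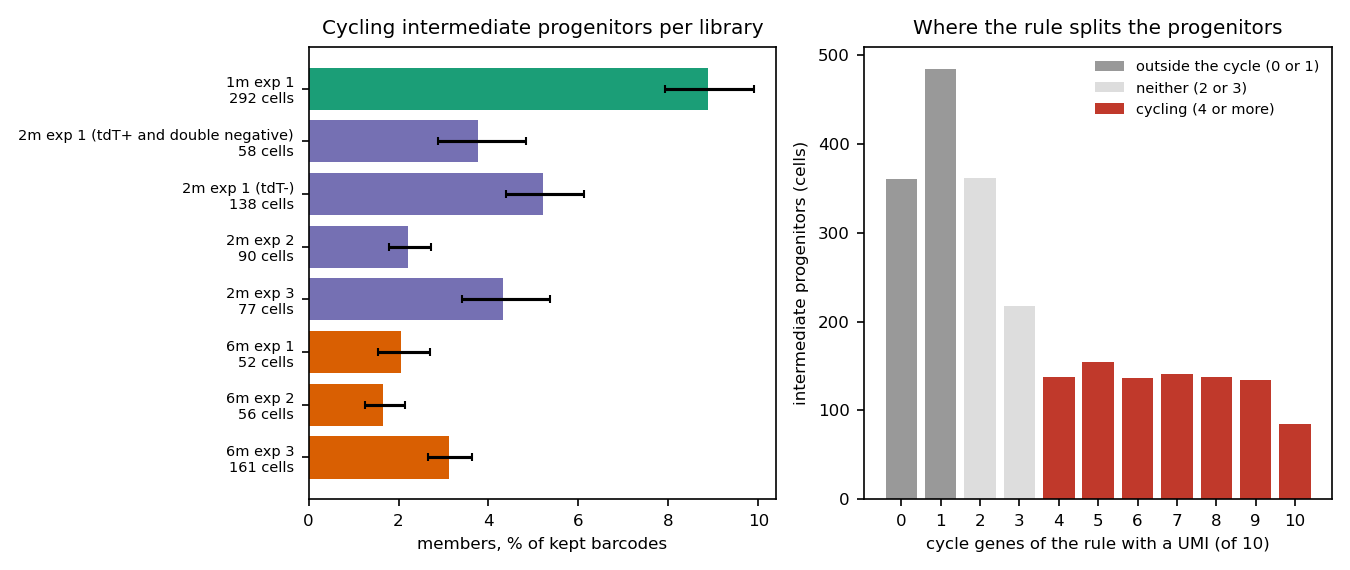
Left, cycling IPCs as a percent of kept barcodes in each of the 8 libraries, with exact 95% binomial intervals that cover counting error only. Without thinning, the 1-month library stood highest at 8.88%. Right, the number of the 10 cycle genes detected in each of the 2349 barcodes that met the other conditions, where 846 held 0 or 1 and 924 held 4 or more.

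The number of cycle genes per cell showed no gap at the threshold of 4. Of the 2349 IPCs that met the other conditions, 361 held none of the 10 cycle genes, 485 held 1, 362 held 2, 217 held 3, 137 held 4, 154 held 5 and 85 held all 10. The 846 with 0 or 1 are called IPCs outside the cycle below, and the 579 with 2 or 3 entered no comparison. The cycling cells were 40.7% of these IPCs at 1 month, 43.3%, 28.0% and 33.2% at 2 months and 28.4%, 47.9% and 49.7% at 6 months. After thinning to 2000 UMIs, 1472 barcodes met the other conditions. Of these, cycling cells were 16.4% at 1 month, 22.2%, 16.2% and 23.1% at 2 months and 14.2%, 16.9% and 30.1% at 6 months. The ages overlapped on both scales.

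The genes that chose the cells are given here as a description. Eomes, a T-box factor, had a UMI in 91.6% of the 924 cells, Neurog2, a proneural bHLH factor, in 69.3%, Mcm6 of the replication helicase in 87.9% and Top2a in 55.2%. In 5848 oligodendrocyte-like cells of the same libraries (median 4543 UMIs, against 9879 in the cycling IPCs) the same 4 genes had a UMI in 0.6%, 0.3%, 0.5% and 0.1%, which sets the level of free RNA. Mki67, whose promoter drives the Cre and which the rule did not use, had a UMI in 38.2% of cycling IPCs and in 37.4% of 211 cycling radial-glia-like cells (median 9085 UMIs). The 4 marker genes of the label are thus all present, but each is also a gene of the rule.

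Markers of radial glia and of neurons were present in cycling IPCs. Of 6 radial-glia genes (Hopx, Aldoc, Slc1a3, Slc1a2, Sox9 and Id4) at least 3 had a UMI in 598 of the 924 cells (64.7%), against 6.45% of the shallower oligodendrocyte-like cells. In IPCs outside the cycle, also shallower, the share was 20.4%. Of the 6 genes, Aldoc alone had a UMI in a smaller share of cycling IPCs than of oligodendrocyte-like cells (21.3%). It was read as background but stayed in the count of cells with at least 3, which was not repeated without it. Slc1a3 had a UMI in 91.6% against 26.9%. The level of a marker list is the sum of its genes' CPM (counts scaled to the total UMIs of the population) in each experiment, averaged over the 7. For 5 oligodendrocyte genes it was 117 CPM in cycling IPCs, 161 CPM in IPCs outside the cycle and 96.6 CPM in cycling radial-glia-like cells. The second experiment at 2 months set these means, with sums of 562, 644 and 404 CPM, against 7.02, 33.7 and 5.55 CPM at 1 month. Without it the means were 43.1, 80.0 and 45.4 CPM. In the comparisons below, 3338 genes passed the test against IPCs outside the cycle without it (3420 with it) and 1485 against cycling radial-glia-like cells (1530 with it). Mbp, a myelin protein gene, was the most abundant of the list in cycling IPCs, at 24.1 CPM pooled over all of them against 5721 CPM pooled over oligodendrocyte-like cells. In cycling IPCs the means were 41.7 CPM for 6 genes of oligodendrocyte precursors, 19.1 for 6 of microglia, 6.91 for 5 of endothelium, 13.9 for 4 of mural cells, 172 for 6 of mature neurons and 0.167 for 3 of ependyma. Of the neuronal genes Rbfox3 (NeuN), a splicing factor, made 123 CPM pooled over all cycling IPCs, with a UMI in 61.5% of them against 0.564% of oligodendrocyte-like cells. In cycling radial-glia-like cells the mean for oligodendrocyte precursors was 188 CPM, and 125 CPM without the second experiment at 6 months. The mean for microglia was 87.1 CPM there, and 24.0 CPM without the first experiment at 2 months, and that of neuronal genes was 51.2 CPM. The part of such RNA in the results below was not tested. No doublet caller was run, and cells in which 2 lineages met were removed only by the condition on the 7 genes.

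The comparisons below were made over the 7 experiments, with UMIs summed per experiment and population. Cycling IPCs were set against the 846 IPCs outside the cycle and the 211 cycling radial-glia-like cells, and experiments of different age were compared. A radial-glia-like cell held at least 4 cycle genes, at least 3 of the 6 radial-glia genes and neither Eomes nor Neurog2. It also held fewer than 2 of the IPC genes of the rule and at most 1 of the 7 genes of other lineages. Testing was limited to genes detected (1 UMI or more) in 20% or more of cells in one population or the other. Reaching this share in 1 population alone selects genes on the side where they are detected more often, so a p is given only for genes that reached it in both, called common below, and the others are described. Unless DESeq2 is named, an adjusted p of a gene is from edgeR's quasi-likelihood test with Benjamini-Hochberg adjustment over all genes tested, with experiment as a block except for age. Cell-cycle genes against IPCs outside the cycle, and radial-glia genes against radial-glia-like cells, move with the genes of the rule and are given without a p. Neuronal genes that were higher than in radial-glia-like cells are given without a p too. The levels are CPM in each of the 7 experiments, and errors of log2 fold changes are SE. The mice of an experiment were pooled, so the spread is between experiments.

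Against IPCs outside the cycle, 3420 of 6050 genes tested passed (56.5%), 1743 higher in cycling IPCs (28.8%) and 1677 lower (27.7%), and these shares are the background for counts over all genes tested. Among the 3798 common genes 59% passed, 22.4% higher and 36.5% lower, which is the background for counts of common genes. The cycle lists held no gene of the rule. Of 37 S-phase genes 35 were tested and all 35 were higher, with a median log2 fold change of 3.20. Of 50 genes of G2 and M phase 48 were tested and 48 were higher, with a median of 4.40, where the median of all genes tested was -0.01. Only 4 and 10 of them were common, all of these higher, and the counts are a description. Among the genes named by size, Esco2, which acetylates cohesin in S phase, lay at 92.6 to 193 CPM (median 131) in cycling IPCs and had 1 UMI in all IPCs outside the cycle. Aurkb, the kinase of the chromosomal passenger complex, lay at 90.1 to 183 CPM (median 113), with 4 UMIs outside. Tk1, thymidine kinase, lay at 64.6 to 159 CPM (median 83), with 2 UMIs outside. Melk, a mitotic kinase, had 798 UMIs against 0 and Ska1, of the spindle and kinetochore complex, 670 against 0. With a floor of 3 counts over the group outside, Melk was at least 130-fold and Ska1 at least 109-fold higher. Kif11, Cdca2, Sgo1, Hmmr and Ncapg, all of mitotic spindle or chromosome structure, were the others named at this end, each higher in 7 of 7 experiments with no overlap between the populations.

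Promoters of 5 cycle genes are shown as examples because S-phase and mitotic genes are known to be controlled through different short motifs, E2F sites for the first and CCAAT boxes with cell-cycle homology regions (CHR) for the second. The stretches are the 150 bases before the RefSeq start in GRCm38.p6, from 5′ to 3′ on the gene's strand. Mcm6, Cdk1 and Top2a are genes of the rule. The first 4 were chosen, after the search, for holding matches and Tk1 for holding none. All 5 genes lie on the minus strand: Mcm6 at chr1:128359706-128359855, Cdk1 at chr10:69352913-69353062, Top2a at chr11:99024190-99024339, Cdc20 at chr4:118437344-118437493 and Tk1 at chr11:117826015-117826164. Capitals mark E2F letters (TTTCGCGC, TTTGGCGC or TTTCCCGC), CHR letters (TTTGAA or TTCGAA) and CCAAT, each on either strand, and in Mcm6 2 E2F matches overlap.
Mcm6: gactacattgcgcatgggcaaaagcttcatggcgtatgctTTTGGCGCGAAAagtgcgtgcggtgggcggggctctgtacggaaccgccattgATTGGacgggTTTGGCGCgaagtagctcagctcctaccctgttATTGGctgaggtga
Cdk1: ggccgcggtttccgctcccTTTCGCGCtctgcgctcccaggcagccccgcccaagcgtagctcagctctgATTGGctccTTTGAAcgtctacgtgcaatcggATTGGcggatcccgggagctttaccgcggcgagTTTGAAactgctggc
Top2a: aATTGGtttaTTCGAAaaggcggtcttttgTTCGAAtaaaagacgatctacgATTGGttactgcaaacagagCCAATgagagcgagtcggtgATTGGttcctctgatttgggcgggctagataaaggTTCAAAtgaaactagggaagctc
Cdc20: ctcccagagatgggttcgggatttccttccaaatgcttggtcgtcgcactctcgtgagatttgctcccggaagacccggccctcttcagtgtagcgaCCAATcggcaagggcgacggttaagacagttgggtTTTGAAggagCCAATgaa
Tk1: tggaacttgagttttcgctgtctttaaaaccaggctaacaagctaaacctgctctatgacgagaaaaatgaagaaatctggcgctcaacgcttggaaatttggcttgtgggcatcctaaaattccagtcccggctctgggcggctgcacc
Mcm6 and Cdk1 held an E2F match, Cdk1, Top2a and Cdc20 a CHR match, and these 4 held CCAAT. Tk1 held none of the 3 motifs. Among other stretches read, that of the S-phase gene Mcm5 held an E2F match, and those of the S-phase genes Rrm2 and Mcm3 held none. Those of Ccnb1, Ccnb2, Bub1, Plk1 and Cdca8, genes of G2 and M phase, held no CHR match.

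Over the lists, promoter windows of 300 bases (250 before to 50 after the start) were searched for the same letters. RefSeq windows matched 26 of the 37 S-phase genes, with 29 windows, and 44 of the 50 G2 and M genes, with 49 windows. An E2F match was in 34.5% of the S-phase windows, in 4.08% of the G2 and M windows and in 1.84% of all 32851 windows. A CHR match was in 17.2% of S-phase windows, 73.5% of G2 and M windows and 19.2% of all windows. CCAAT and CHR stood together in 59.2% of the G2 and M windows against 7.52% of all windows. A match is a description of the letters and does not show that a factor was bound. The E-box letters CAGATG or CAGCTG, read by proneural factors, were in 40.0% of the 20 windows of 13 early neuronal genes and 30.6% of all windows.

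Among neurogenic transcription factors, Insm1 was higher in cycling IPCs and the other common ones were lower. Of 15 such genes 13 were tested and 8 were common, 1 of these higher and 7 lower, with a median log2 fold change of -0.86. Insm1, a zinc-finger factor of dividing neuronal progenitors, lay at 189.8 to 935 CPM (median 513) against 80.4 to 406 CPM (median 156) (log2 fold change 1.53 ± 0.10, adjusted p = 2.34e-10), higher in 7 of 7 experiments, although the ranges overlapped. Tfap2c, an AP-2 factor and not common, had a log2 fold change of 1.54.

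Neurod1, the bHLH factor of the turn to neuroblast, was lower. It lay at 375 CPM at 1 month, 188, 339 and 342 CPM in the 3 experiments at 2 months, and 88.3, 188 and 183 CPM in the 3 at 6 months in cycling IPCs. Outside the cycle it lay at 901 to 1068 CPM (median 952), above every cycling value (log2 fold change -2.08 ± 0.15, adjusted p = 6.20e-10). The lowest cycling value was that of the first 6-month experiment and the highest that of 1 month. By cell, Neurod1 had a UMI in 53.8% of the cycling IPCs at 1 month, in 40.3%, 51.1% and 53.2% at 2 months and in 28.8%, 50% and 44.1% at 6 months. Outside the cycle, where the cells were shallower (median 5040 UMIs), the share was 76.0 to 96.3% in the 7 experiments, above every cycling share. Over all cells it was 47.3% in cycling IPCs, against 1.42% in oligodendrocyte-like cells. Prox1, a factor of granule neurons, was lower in 7 of 7 experiments with no overlap (log2 fold change -1.28 ± 0.10, adjusted p = 2.34e-09). Neurod2, Neurod6 and Bhlhe22, factors of postmitotic neurons that were not common, had log2 fold changes of -2.91, -2.44 and -2.49. Tbr1, the T-box factor that follows Eomes in glutamatergic neurons, was also lower (log2 fold change -1.52 ± 0.13, adjusted p = 7.75e-09), with overlapping ranges of 21.3 to 102 CPM (median 31.5) and 65.7 to 201 CPM (median 125).

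Genes of the neuroblast cytoskeleton and surface were lower as a group. All 20 early neuronal genes were tested and 17 were common, 15 of these lower and 1 higher, with a median log2 fold change of -1.28. Calb2 (calretinin), the marker of young granule neurons, lay at 4.31 to 199 CPM (median 13.4) in cycling IPCs against 351 to 1094 CPM (median 687) (log2 fold change -3.50 ± 0.35). Stmn2, a microtubule-destabilising protein of growing neurites, lay at 2.15 to 174 CPM (median 37.6) against 534 to 858 CPM (median 679.6) (log2 fold change -3.47 ± 0.29). Dcx, which binds microtubules in migrating neuroblasts, lay at 85.9 to 146 CPM (median 121) against 302 to 527 CPM (median 314) (log2 fold change -1.61 ± 0.13, adjusted p = 2.53e-09). None of the 3 overlapped between the populations, and Calb2 and Stmn2 were not common. Tubb3, neuronal tubulin, was lower too (log2 fold change -2.36). The exceptions were Elavl4, an RNA-binding protein that was a little higher (0.23, a call lost in Version 2 alone, adjusted p = 0.136), and Stmn1, a stathmin of dividing cells and neuroblasts alike (log2 fold change -0.08 ± 0.06, adjusted p = 0.212). Cd24a, Hecw1, Klhl35, Tspan4, Stmn4, Kcnk1 and Mir124a-1hg, the host transcript of a neuronal microRNA, completed the 10 largest decreases among the genes named by size. They lay between -2.99 and -2.73, and of the 10 only Cd24a was common.

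Notch signalling passes between neighbouring progenitors, Dll1 being a ligand that neurogenic cells present, Notch1 a receptor, and Hes5 and Nrarp targets. Of 20 Notch genes 9 were tested and 4 were common, 1 of these higher in cycling IPCs and 1 lower, with a median log2 fold change of -0.04. Hes6, a factor that opposes Hes1, was the higher one (log2 fold change 1.02 ± 0.12, adjusted p = 8.95e-07) and Numbl, an inhibitor of the receptor, the lower one (log2 fold change -0.91 ± 0.13, adjusted p = 6.49e-06). The ligand, a receptor and targets reached 20% of cells in cycling IPCs alone. Dll1 lay at 37.4 to 59.1 CPM (median 53) in cycling IPCs against 1.75 to 51.7 CPM (median 9.88) outside (log2 fold change 2.00 ± 0.27). Notch1, Nrarp and Hes5 had log2 fold changes of 1.38, 1.45 and 1.87. The Id proteins, which hold back bHLH factors, differed, with Id2 lower (log2 fold change -1.64 ± 0.12, adjusted p = 5.68e-10) and Id1, not common, at a positive change (log2 fold change 2.58 ± 0.25).

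D-type cyclins couple outside signals to entry into the cycle, together with Cdk4 and Cdk6. Of 19 genes of these cyclins, their partners and inhibitors 18 were tested and 9 were common, 6 of these higher and 2 lower. Ccnd2, the D cyclin of adult hippocampal progenitors, lay at 992 to 2653 CPM (median 1975) against 238 to 707 CPM (median 568), with no overlap. Its log2 fold change was 1.95, against 1.71 for Ccnd1, 3.73 for Ccne2, an E cyclin, and 3.74 for Cdk2. The inhibitor Cdkn1a (p21) had a log2 fold change of 1.71 and, like Ccnd1, Ccne2 and Cdk2, was not common, while Cdkn1b (p27) and the antiproliferative Btg1 were lower (-0.41 and -0.64). No p is given for this list because its genes are part of the cycle by which the cells were chosen.

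Genes of radial glia were measured at higher levels in cycling IPCs than outside the cycle. Of 17 radial-glia genes, none of them in the rule, 10 were tested and 9 were common, 8 of these higher and 0 lower, with a median log2 fold change of 0.77. Sox2, a stem-cell factor, was higher in 7 of 7 experiments (log2 fold change 0.77 ± 0.07, adjusted p = 3.17e-08), as were Apoe (log2 fold change 1.19 ± 0.26, adjusted p = 7.82e-04) and Ptprz1, a receptor phosphatase (log2 fold change 1.10 ± 0.11, adjusted p = 7.99e-08). Apoe, like Aldoc above, had a UMI in a smaller share of cycling IPCs (91.0%) than of oligodendrocyte-like cells (98.8%). The part of free RNA in the change of Apoe was not tested. Nes, the gene of the stem-cell filament nestin, was not common (log2 fold change 1.64 ± 0.27). Of the 6 radial-glia genes used to choose radial-glia-like cells 5 were tested and 2 were common, and neither passed, Slc1a3 (log2 fold change 0.14 ± 0.08, adjusted p = 0.157) and Slc1a2 (log2 fold change 0.24 ± 0.12, adjusted p = 0.0928), both glutamate transporters. Of those not common, Hopx, a homeodomain protein of the stem cells, lay at 21.5 to 408 CPM (median 185) against 17.5 to 183 CPM (median 27.6) (log2 fold change 1.48 ± 0.32), with a change of 0.31 in the Version 2 experiments alone. Sox9 and Id4 had log2 fold changes of 1.22 and 0.32.

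**Figure D2:**
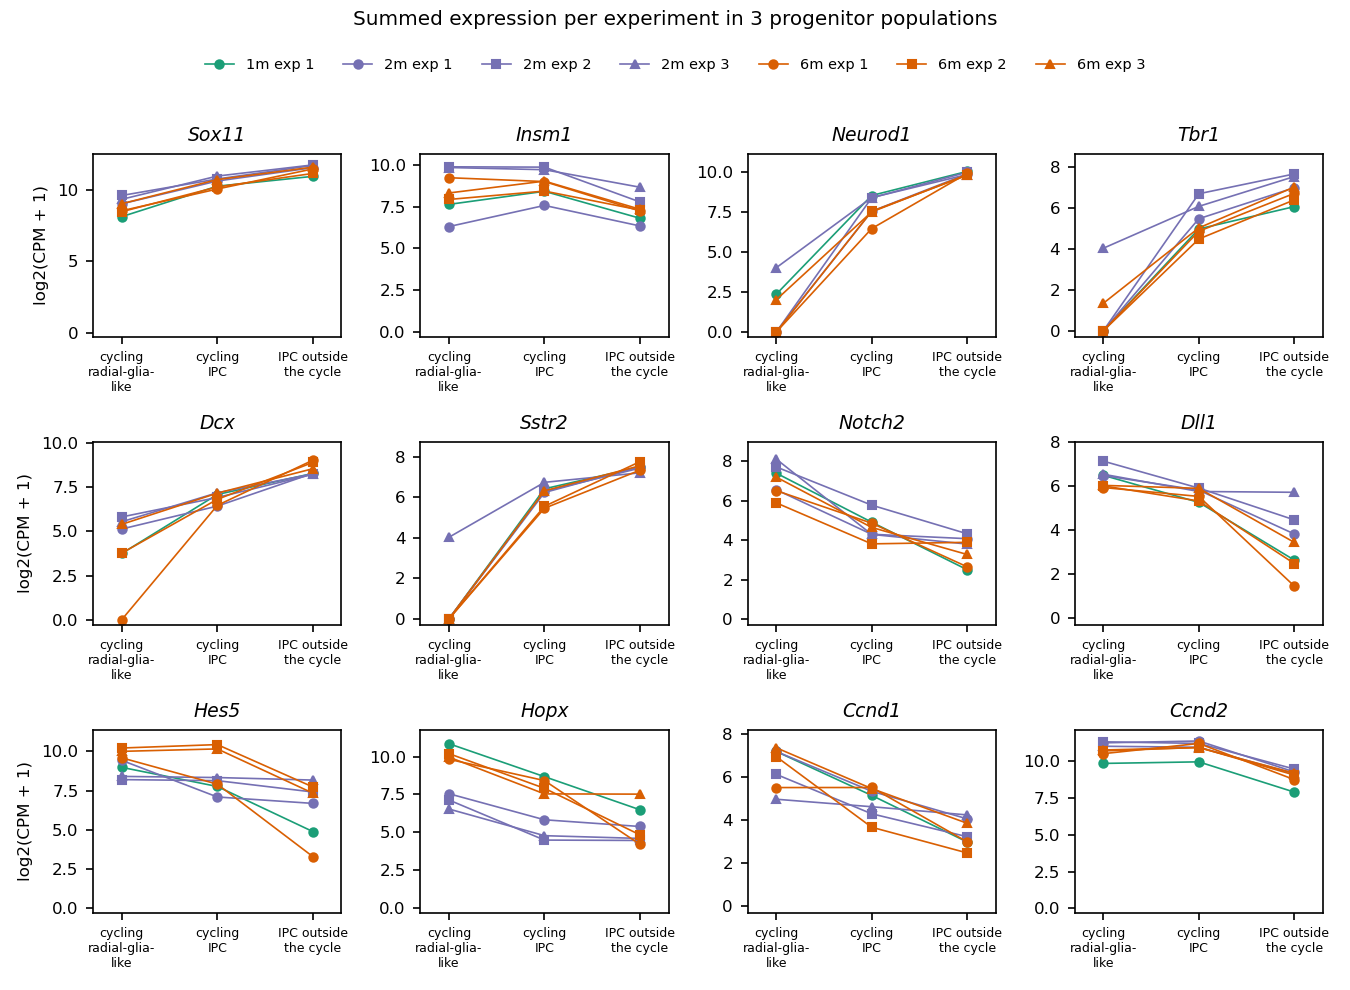
Level of 12 named genes, as log2(CPM + 1), in cycling radial-glia-like cells, cycling IPCs and IPCs outside the cycle, 1 point per experiment (7 per population), lines joining the populations of 1 experiment. Neurod1, Sstr2 and Sox11 step up from left to right in 7 of 7 experiments, Notch2 steps down to cycling IPCs in 7 of 7, and Insm1 is lower outside the cycle than in cycling IPCs in 7 of 7.

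Against cycling radial-glia-like cells, in which at least 4 cycle genes were detected too, 1530 of 6372 genes passed (24%), 651 higher in cycling IPCs (10.2%) and 879 lower (13.8%). Among the 5384 common genes 20.5% passed, 9.32% higher and 11.2% lower. The smallest group was the 8 radial-glia-like cells of the first 6-month experiment. The median of all genes tested was 0.00 on the log2 scale. Of the 17 radial-glia genes, which go with the genes that chose the other population, 16 were tested and 10 were common, all 10 lower, with a median log2 fold change of -1.19. In the ranking by size of genes with the same sign in every experiment, the 10 largest decreases ran from -3.39 to -2.52. They were Mlc1, Lfng, Ntsr2, Ttyh1, Slc25a18, Jam2, S100a6, Ddah1, Sdc4 and Mfge8. Lfng, a glycosyltransferase that modifies Notch receptors, lay at 2.65 to 13.3 CPM (median 8.28) in cycling IPCs and at 43.1 to 138 CPM (median 66) in radial-glia-like cells.

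Genes of the neuronal side were higher in cycling IPCs than in these dividing cells. Of 20 early neuronal genes 17 were tested and 12 were common, 10 of these higher in cycling IPCs and 1 lower, with a median log2 fold change of 0.74. Of 15 neurogenic factors 9 were tested and 7 were common, 5 higher and 0 lower (median 0.52). The radial-glia-like cells were chosen for lacking Eomes and Neurog2, with which these genes move. The counts are thus a description, and the higher genes are given without a p. Neurod1 had 2699 UMIs in cycling IPCs and 6 in all cycling radial-glia-like cells, and Tbr1 had 360 and 2. These 2 genes and Dcx were not common. Dcx lay at 85.9 to 146 CPM (median 121) against 0 to 55.8 CPM (median 34.3) (log2 fold change 2.31 ± 0.22), with no overlap. Sox11, a neuronal SoxC factor, lay at 1088 to 2044 CPM (median 1607) against 283 to 795 CPM (median 529) (log2 fold change 1.70 ± 0.08). The 1 early neuronal gene that was lower was Dclk1, a doublecortin-like kinase (log2 fold change -0.61 ± 0.14, adjusted p = 8.14e-04), lower in 5 of 7 experiments, but in the Version 2 experiments alone its change was -0.099 (adjusted p = 0.930).

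Sstr2, a somatostatin receptor, had the largest increase in the same ranking, from which genes of the rule were left out. It had 779 UMIs in cycling IPCs and 1 UMI in radial-glia-like cells. It lay at 43.1 to 106 CPM (median 77.9) in cycling IPCs and was at 0 in 6 of 7 experiments in the radial-glia-like cells. Outside the cycle it lay higher again, at 147 to 216 CPM (median 180.3) (cycling against outside log2 fold change -1.28 ± 0.12, adjusted p = 2.86e-08). Pcp4, a calmodulin-binding peptide, lay at 241 to 777 CPM (median 515) against 0 to 40.6 CPM (median 9.80). Srrm4, the splicing factor of neuronal microexons, lay at 88.6 to 123 CPM (median 103) against 0 to 30.7 CPM (median 5.08). Neither gene overlapped between the populations, and Chga, Rnd2, Enc1, Elavl2 and Rbfox3 (NeuN) were the others of the 10 largest increases, each higher in 7 of 7 experiments. Of the 20 genes at both ends Elavl2, Ddah1 and Mfge8 were common.

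Notch1 was lower in cycling IPCs than in the dividing radial-glia-like cells. Of 20 Notch genes 14 were tested and 7 were common, 1 of these higher and 4 lower, with a median log2 fold change of -0.66. Notch1 (log2 fold change -1.05 ± 0.13, adjusted p = 8.57e-08) and the target Nrarp (log2 fold change -0.88 ± 0.15, adjusted p = 3.79e-05) were lower in 7 of 7 experiments. Notch2, not common, lay at 13 to 53.7 CPM (median 24) against 58.4 to 276 CPM (median 146) (log2 fold change -2.48 ± 0.16). Dll1 was lower in 7 of 7 (log2 fold change -0.74 ± 0.17, adjusted p = 9.57e-04), a call that was lost without the 1-month experiment (adjusted p = 0.0563). Hes5 was lower in 5 of 7 (log2 fold change -0.66 ± 0.19, adjusted p = 0.00919), a call lost in DESeq2 (adjusted p = 0.222), without the 1-month experiment or the first at 2 months, and in the Version 3 experiments alone (log2 fold change -0.41, adjusted p = 0.115). Rbpj, the DNA-binding partner of Notch, was the 1 that was higher (log2 fold change 0.66 ± 0.16, adjusted p = 0.00265). In the Version 2 experiments alone the calls of Notch1 (adjusted p = 0.0717), Dll1 (0.0995) and Rbpj (0.787, log2 fold change 0.33) were lost. Among genes that were not common, Hes1 had 26 UMIs against 266 and a lower level in 6 of 7 experiments, the ligand Jag1 had a log2 fold change of -2.28 and Dll3, a ligand that acts inside its own cell, one of 1.07.

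Most cycle genes, like most common genes, did not pass the test between the dividing populations. Of all common genes 20.5% passed, 9.32% higher and 11.2% lower. Of 37 S-phase genes 33 were common and 8 of these were higher in cycling IPCs, and of 50 G2 and M genes 47 were common and 8 of these were lower, with medians of 0.20 and -0.11. Of 15 common cyclin and inhibitor genes 3 were higher and 2 lower. Ccnd1 was the larger of the decreases, with 11.8 to 45.2 CPM (median 34.9) in cycling IPCs and 30.7 to 166 CPM (median 124) in radial-glia-like cells (log2 fold change -1.99 ± 0.18, adjusted p = 1.31e-10), lower in 6 of 7 experiments. Ccnd2 did not pass the test (log2 fold change 0.17 ± 0.07, adjusted p = 0.0790), although it did under 6 other settings. These were leaving out the second or the third experiment at 2 months (adjusted p = 0.0445 and 0.0275) or the tdTomato+ library (0.0231), Version 3 alone (0.0225), at least 5 cycle genes (0.0195) and no filter on low counts (3.29e-05). Its ranges were 992 to 2653 CPM (median 1975) and 921 to 2551 CPM (median 1735). Cdk6 was higher in 7 of 7 experiments (log2 fold change 0.46 ± 0.10, adjusted p = 3.41e-04), a call lost in Version 2 alone (adjusted p = 0.196).

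The balance of the phases was measured as the log2 ratio of the summed UMIs of the G2 and M list over those of the S-phase list. It was 1.58 at 1 month, 1.36, 0.46 and 0.64 at 2 months and 0.82, 1.81 and 1.38 at 6 months in cycling IPCs. In cycling radial-glia-like cells it was 1.57, then 2.20, 1.26 and 1.68, and then 1.05, 1.91 and 1.72. The cycling IPCs were lower in 6 of 7 experiments, by a mean of 0.48 ± 0.41 (SD, n = 7), with a two-sided exact sign-flip p of 0.031 over the experiments and 0.031 after adjustment over the 5 single values tested. The mean difference was -0.89 in the 3 Version 2 experiments and -0.16 in the 4 Version 3 experiments. Leaving out any 1 experiment other than that of 1 month gave an exact p of 0.0625. By cell the order was mixed. The share of cells with more UMIs of the G2 and M list than of the S-phase list was 69.2% at 1 month, 57.1%, 46.7% and 51.9% at 2 months and 53.8%, 67.9% and 70.2% at 6 months in cycling IPCs. In cycling radial-glia-like cells it was 60.9%, then 59.4%, 60% and 64.3%, and then 75%, 56.7% and 55.8%, so cycling IPCs were lower in 4 of 7 experiments and higher in 3, a difference that was not tested.

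The reporter transcripts give a record of Cre activity during the days of tamoxifen. The recombined share is the percent of tdTomato-locus UMIs that came from the recombined form, and the intact form is read from its loxP-flanked sequence. It was 20.4% at 1 month, 16.5%, 39.7% and 52.8% at 2 months and 23.4%, 10.7% and 26.8% at 6 months in cycling IPCs. In IPCs outside the cycle it was 32.0%, then 13.9%, 44.1% and 61.3%, and then 28.5%, 34.4% and 47.9%. In cycling radial-glia-like cells it was 4.73%, then 10.8%, 31.9% and 52.5%, and then 8.43%, 7.75% and 12.4%. TdTomato+ and tdTomato- cells were mixed in a ratio that the sources used here do not give, which sets the level in an experiment, but the populations compared share their libraries.

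Cycling IPCs lay between the other populations. They were lower than IPCs outside the cycle in 6 of 7 experiments, with a mean difference of -10.3 ± 9.41 percentage points (SD, n = 7, two-sided exact sign-flip p = 0.031, adjusted p = 0.031). They were higher than cycling radial-glia-like cells in 7 of 7, with a mean difference of 8.81 ± 6.23 points (exact p = 0.016, the smallest that 7 experiments allow, adjusted p = 0.026). The mean differences were -3.44 and 4.59 points in the Version 2 experiments and -15.4 and 12 points in the Version 3 experiments. The first had an exact p of 0.0625 when any experiment other than the first at 2 months was left out and of 0.125 in cells without any of the 7 genes of other lineages, and the second an exact p of 0.0625 with at least 5 cycle genes. The first experiment at 2 months, which was run as 2 libraries, was the 1 with the opposite direction.

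By cell the difference from IPCs outside the cycle was not seen at 2 months. A cell was counted as tdTomato+ when its recombined UMIs were more than 1 in Version 2 or 2 in Version 3 and its intact UMIs fewer than 4 times that number. The share was 23.3% at 1 month, 15.3%, 33.3% and 54.5% at 2 months and 32.7%, 16.1% and 16.1% at 6 months in cycling IPCs. In IPCs outside the cycle, which were shallower, it was 42.2%, then 15.4%, 28.6% and 47.8%, and then 42.5%, 57.7% and 48.8%. Cycling IPCs were thus all but level in the first experiment at 2 months, higher in the other 2-month experiments, and lower at 1 month and in every experiment at 6 months, and this was not tested.

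eGFP, the transcript of the Nestin reporter, fell along the same order. It lay at 680 CPM at 1 month, 404, 556 and 567 CPM at 2 months and 353, 350 and 227 CPM at 6 months in cycling IPCs. It lay between 87.4 and 406 CPM outside the cycle and between 459 and 1763 CPM in cycling radial-glia-like cells. On the scale of log2(CPM + 1) cycling IPCs were 1.11 ± 0.51 above IPCs outside the cycle and 1.06 ± 0.28 below cycling radial-glia-like cells (SD, n = 7), each with the same sign in 7 of 7 experiments (exact sign-flip p = 0.016, adjusted p = 0.026). The first was 0.76 in Version 2 and 1.37 in Version 3. Apart from the double-negative cells of 1 library, the cells had been sorted as GFP+, so the comparison is mostly among cells above a gate on the protein.

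**Figure D3:**
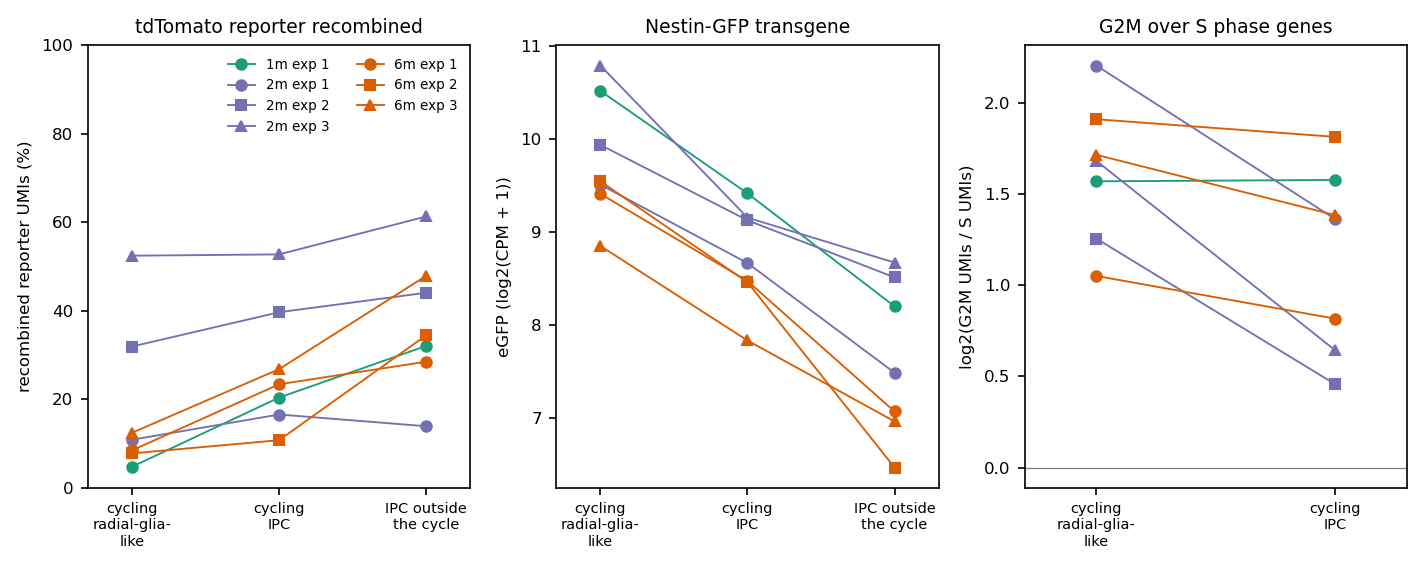
Recombined share of reporter UMIs (percent), eGFP as log2(CPM + 1), and the log2 ratio of G2 and M to S-phase UMIs in each of the 7 experiments, lines joining the populations of 1 experiment. The recombined share rises from cycling radial-glia-like cells to cycling IPCs in 7 of 7 experiments and on to IPCs outside the cycle in 6 of 7, while eGFP falls at both steps in 7 of 7, and the third panel shows the 2 cycling populations only.

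Age was compared between ages of the same chemistry, 3 experiments at 6 months against the lone one at 1 month, which was assumed to vary like the others. The fit also held the 3 Version 2 experiments at 2 months, so the spread draws on both chemistries. Of 5958 genes 1 passed (0.0168%), higher at 6 months (0.0168%), and 0% were lower, while 252 had an unadjusted p under 0.05 and DESeq2 called 1. In Version 3 alone 1 passed too. That gene was Gm8797, a predicted gene whose reads may be shared with near-identical copies, at 111 ± 30.1 CPM (SD, n = 3) against 19.8 CPM (log2 fold change 2.54 ± 0.36, adjusted p = 0.0156). It lost its call without the third experiment at 2 months (adjusted p = 0.0596) and without the second or the third at 6 months (0.0803 and 0.138). Ccnd2 lay at 2087 ± 236 CPM at 6 months against 992 CPM at 1 month (log2 fold change 1.08 ± 0.24, adjusted p = 0.382) and Neurod1 at 153 ± 56.3 CPM against 375 CPM (log2 fold change -1.23 ± 0.32, adjusted p = 0.480). When no filter on low counts was used both genes passed the test, but with the filter neither did. Every list had 0 members called in either direction, in a comparison whose reference is 1 experiment of pooled mice.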

How the data were processed

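The authors made the deposited UMI counts with Cell Ranger 3.0.2 on a custom mouse genome (mm10) with the reporter sequences added, and merged 8 libraries without depth normalization, as 1 matrix of 31058 features and 26036 barcodes. Cutadapt 1.18 and Seurat are also named in the submitters' processing notes. The study removed doublets in its own analysis. That step was not applied to the matrix, and no caller was run here.

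UMIs were summed over the cells of a population in each of the 7 experiments, those with at least 5 cells of both populations entering a comparison. Tests were limited to genes detected in 20% or more of cells in one population or the other, and adjusted p-values are printed for those that reached 20% in both. The quasi-likelihood test (edgeR 4.0.16, TMM scaling, limma 3.58.1, R 4.3.3) used experiment as a block, or age group without a block, with an adjusted p under 0.05 as the threshold. Single values were tested by two-sided exact sign-flip tests over experiments (SciPy 1.17.1), adjusted over the 5. CPM are counts scaled to a fixed total of a population's UMIs, and intervals cover counting error only. On simulated counts with 200 changed genes the test recovered 99.9% (outside the cycle), 98% (radial-glia-like cells) and 54.6% (age) of them. The simulated counts held 6065, 6393 and 5958 genes. Recovery was not split by the size of a change, and that of small changes was not tested. Named genes are the 10 largest changes in each direction among those past the threshold with the same sign in every experiment and a mean of at least 50 CPM in the higher population, beside members of the gene lists. Predicted Gm and Rik genes, mitochondrial genes and genes of the rule were left out of that ranking. 1 planned comparison within the cycling IPCs and some genes of the lists are not reported here. The members, lists and comparisons were chosen with earlier results of these data known. Alternatives were DESeq2 1.42.0, scaling by total UMIs, no filter on low counts, at least 5 cycle genes, none of the 7 genes of other lineages, thinning, either chemistry alone, no block, and leaving out each experiment.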

Additional observations from a re-analysis of the deposited data

Results flagged for a closer look

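The 1-month library held the highest share of cycling IPCs, 8.88% of its kept barcodes, and its gap to the other experiments was larger than Dixon's 95% limit for 7 values allows. For eGFP, the log2 difference between cycling IPCs and cycling radial-glia-like cells was lowest in the third experiment at 2 months, at -1.63 against a mean of -1.06, by the same limit. Chance places about 1 group in 20 past it.

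The difference in the log2 ratio of G2 and M to S-phase UMIs between cycling IPCs and cycling radial-glia-like cells was -0.89 in the Version 2 experiments and -0.16 in the Version 3 experiments. The first minus the second was -0.73, with an exact permutation p of 0.0286, the smallest that 3 against 4 experiments allow, and an adjusted p of 0.143 over the 5 single values. Cycling IPCs were shallower in the Version 2 libraries, the part of depth was not tested, and chemistry and the age of 2 months cannot be told apart.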

How the results depend on the processing

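Thinning to 2000 UMIs left 294 cycling IPCs, a minimum of 5 cycle genes 787 and the absence of all 7 genes of other lineages 767. In the Version 2 experiments alone 2114 genes passed against IPCs outside the cycle and 320 against cycling radial-glia-like cells, and the G2 and M to S difference was -0.89. Without the replicate block, whose pairing comes from the shared animals and library of an experiment, these counts were 2080 and 720. The recombined share then differed from IPCs outside the cycle by -10.3 points (exact permutation p = 0.218) and from cycling radial-glia-like cells by 8.81 points (p = 0.320), and the G2 and M to S ratio by -0.48 (p = 0.0758). No paired analysis was possible for age because the 1-month group is 1 experiment.

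Leaving out 1 experiment at a time gave 0 to 7 genes for age by edgeR, with 62 for age when no filter on low counts was used. It gave -12.4 to -8.03 points for the recombined share against IPCs outside the cycle and -0.56 to -0.38 for the G2 and M to S ratio. Cells without any gene of other lineages gave -10.2 points (exact p = 0.125) for the first, and at least 5 cycle genes 8.94 points (exact p = 0.0625) against cycling radial-glia-like cells. Of 121 named genes by comparison 92 kept their direction and side of the threshold under every setting run. Calls of 15 were lost without the block, of 19 in the Version 2 experiments alone and of 2 by DESeq2, each in the same direction. Leaving out the tdTomato+ library of the first experiment at 2 months, chosen after seeing the data, gave 3394 genes against IPCs outside the cycle and 1474 against cycling radial-glia-like cells. Low-count genes and the 8 radial-glia-like cells of 1 experiment limit the precision, and causes of these shifts were not tested.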

Other observations

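Among common genes, growth factor and signalling receptors were lower or did not pass the test. Over all 13 receptor genes tested against cycling radial-glia-like cells, 1 was higher and 7 were lower in cycling IPCs. Of all genes tested there, 10.2% were higher and 13.8% lower. Of 17 receptor genes 9 were tested and 4 were common against IPCs outside the cycle, with 0 higher and 4 lower in cycling IPCs, and 13 were tested and 7 common against cycling radial-glia-like cells, with 0 higher and 4 lower. Fgfr1, a receptor for fibroblast growth factors, was lower than outside the cycle in 7 of 7 experiments (log2 fold change -1.26 ± 0.11, adjusted p = 1.65e-08). Against cycling radial-glia-like cells Ptch1, the receptor for hedgehog ligands, was lower (log2 fold change -1.38 ± 0.21, adjusted p = 3.28e-06), a call lost in the Version 2 experiments alone (adjusted p = 0.458). Egfr, not common, lay at 10.7 to 40.9 CPM (median 22.5) against 27.9 to 93.1 CPM (median 63.4) there (log2 fold change -1.56 ± 0.22), and Fgfr3, not common either, had a log2 fold change of -2.01.

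Of 9 immediate-early genes, which respond fast to stimuli, 6 were common against IPCs outside the cycle, 0 of them higher and 3 lower, where 36.5% of all common genes were lower. Against cycling radial-glia-like cells 6 were common, 2 higher and 3 lower, where 9.32% and 11.2% of all common genes were. Junb, a partner of Fos in the AP-1 factor, lay at 24.6 to 196 CPM (median 53) in cycling IPCs and 123 to 395 CPM (median 204) outside the cycle (log2 fold change -1.46 ± 0.15, adjusted p = 1.10e-07).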
